A study of Mus musculus with 15 samples.

Results

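LSK cells sorted 12 weeks after transplantation from mice carrying a HOXB4 vector (3 arrays) were compared with LSK cells from mice carrying a GFP vector at the same time (3 arrays). These are 6 of the 15 arrays of the series, chosen by their titles, and the comparison covers 17097 genes. Each gene is read by 1 probe set, the brightest by its mean over the 15 arrays among probe sets with a single gene symbol. In both groups the donors were female C57Bl/6 mice treated with 5-fluorouracil, and their marrow was infected with supernatant of producer cells made from the GPE+86 line before transplantation into lethally irradiated recipients. The HOXB4 group received MSCV-HOXB4-ires-YFP, a retroviral vector that expresses HOXB4 together with a yellow fluorescent protein. The GFP group received MSCV-ires-GFP, the same type of vector with a green fluorescent protein and no HOXB4. Fluorescent LSK cells were sorted from bone marrow and lysed without culture, and 20 ng of total RNA were amplified and labelled for each array. The other 9 arrays are HOXB4 cells at 6 and 20 weeks and GFP cells at 20 weeks, 3 each. The titles give 20 weeks for the last time and the series text gives 24, and the time of the titles is used here.

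LSK stands for lineage-negative, Sca-1+ and Kit+, the surface pattern that defines the marrow fraction holding blood stem cells and early multipotent progenitors. HOXB4 is a homeobox transcription factor, and its forced expression is known to expand blood stem cells after transplantation. Within this fraction some progenitors already carry lymphoid transcripts and others carry granulocyte or megakaryocyte transcripts, so a bulk profile sums several states. In such a profile fewer cells of a type and less RNA per cell cannot be told apart. The number of transduced clones is not stated in the labels, each group was sorted on a different fluorescent protein, and nothing in the labels tells whether a group's 3 arrays came from separate mice. The p-values therefore rest on array-to-array spread alone, part or all of which may be technical.

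The values are log2 signals after robust multi-array averaging (RMA), and every difference is HOXB4 minus GFP on the log2 scale with its standard error. A gene was called when limma's moderated test gave an adjusted p under 0.05, with Benjamini-Hochberg adjustment over all 17097 genes. For any one gene, the smallest p that exact two-sided permutation of 3 against 3 arrays allows is 0.1. Arrays correlated with each other between 0.992 and 0.995 within the HOXB4 group and between 0.992 and 0.993 within the GFP group, against 0.979 to 0.983 between the groups. The 23 non-specific control probe sets read between 2.03 and 4.82 on the 6 arrays, and a signal in that range may be background, so that a difference from it gives no exact fold. The excess of 3' over 5' signal at the Gapdh control probe sets, a sign of RNA quality, ran from 0.93 to 1.02 in HOXB4 and from 0.81 to 1.25 in GFP arrays. At the beta-actin controls the same quantity ran from -0.93 to -0.92 in HOXB4 and from -0.87 to -0.82 in GFP arrays. The array medians ran from 5.303 to 5.327 in HOXB4 and from 5.257 to 5.29 in GFP arrays. The groups did not overlap in either of these last measures, and their part in the results was not tested.

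The genes of the sort were examined first. Kit, the stem cell factor receptor that defines the gate, read 8.13, 7.94 and 8.14 on the HOXB4 arrays, against 8.69, 8.79 and 8.62 on the GFP arrays. All 6 values lie above the range of the non-specific controls. Among the lineage genes that the sort should exclude, the T cell receptor chain Cd3e read 4.04 to 4.16 on HOXB4 arrays, against 4.03 to 4.42 on GFP arrays, within the range of the non-specific controls. The integrin Itgam, a myeloid marker, read 4.54 to 5.21 on HOXB4 arrays, against 4.83 to 4.86 on GFP arrays. Cd4 stood at 5.71 to 5.87 on HOXB4 arrays, against 5.49 to 5.56 on GFP arrays, and Cd8a at 5.25 to 5.44 on HOXB4 arrays, against 5.44 to 5.60 on GFP arrays. None of these lineage genes was called. Ly6a, which encodes Sca-1, was not analysed here.

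Mouse Hoxb4 itself read 6.55, 6.59 and 6.45 in HOXB4 cells, against 6.83, 6.85 and 6.81 in GFP cells, a difference of -0.30 ± 0.24 (adjusted p = 0.528). Its other probe set read 5.58, 5.55 and 5.68 in HOXB4 cells and 6.15, 6.22 and 6.21 in GFP cells (-0.59 ± 0.17; adjusted p = 0.0727 over all named probe sets). Where these probe sets lie relative to the HOXB4 insert of the vector is not stated in the files or labels, and they are therefore no check of the labels. Prdm16, Hemgn, Mecom, Meis1 and Hoxa9, genes of stem cell self-renewal or linked to HOXB4, were not called at 12 weeks either, with differences of -0.13, 0.66, -0.21, 0.15 and -0.09. Mecom lay within the range of the non-specific controls on all 6 arrays. Hemgn read 9.64, 9.57 and 9.52 in HOXB4 cells, against 8.98, 8.83 and 8.94 in GFP cells. Without the 6-week group limma's test called Hemgn higher (adjusted p = 0.02). Dimmer probe sets of Prdm16 gave -0.97, -0.35 and -0.40, none of them called.

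Between HOXB4 and GFP cells 688 of the 17097 genes were called, which is 4.02% of the genes tested. Of these 312 were higher in HOXB4 cells (1.82%) and 376 were lower (2.2%), so 45.3% of the calls were rises. That share was 54.0% after a further quantile normalisation, with 267 higher and 227 lower, 36.5% with each array centred on its median and 35.5% with the dimmest genes dropped. It ran from 51.6% to 60.3% when 1 of the 6 arrays was left out. The median difference over all genes was -0.02. The rises were larger than the falls: 139 called genes were at least 2-fold higher and 73 at least 2-fold lower, and 40 were at least 4-fold higher against 7 at least 4-fold lower. The 3 HOXB4 arrays and the 3 GFP arrays did not overlap for 5958 genes, or 34.8% of those tested, and for all 688 called genes. The count of calls was 214, 362 and 223 without GFP replicates 1, 2 and 3, and 234, 244 and 309 without HOXB4 replicates 1, 2 and 3.

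**Figure D1:**
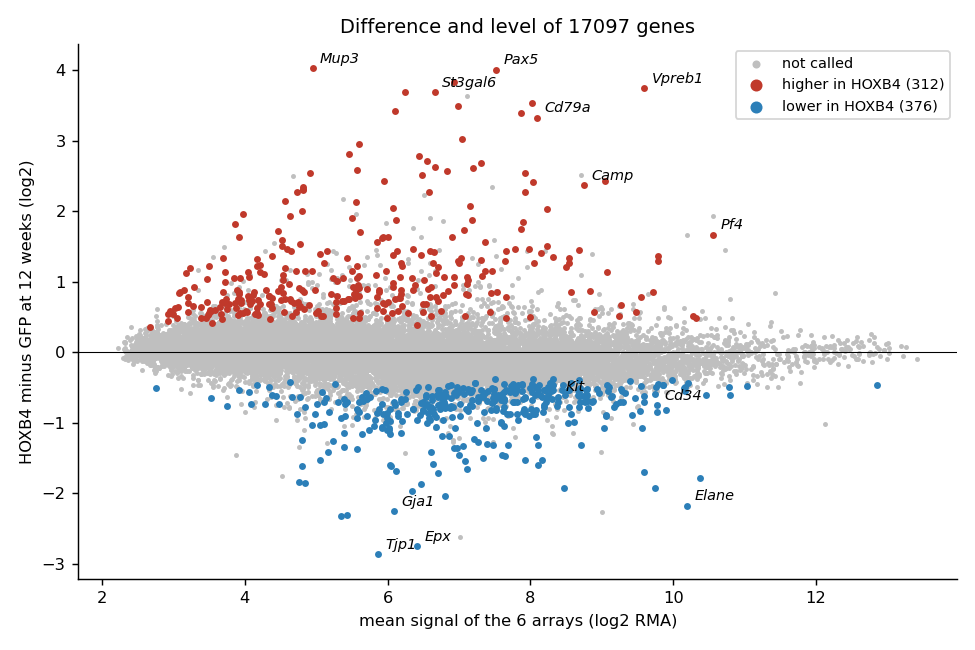
Difference between HOXB4 and GFP cells at 12 weeks (log2, y axis) against the mean signal of the 6 arrays (log2 RMA, x axis) for 17097 genes, with 312 genes called higher in red and 376 called lower in blue. The largest rises reach about 4 on the log2 scale and the largest falls stay above -3.

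Genes of the B-lineage lists made up 10 of the 20 largest named rises, and primary granule and eosinophil genes 6 of the 20 largest named falls. Early B cells assemble a pre-B cell receptor from the heavy chain, the surrogate light chains and a pair of signalling chains, under the transcription factors E2A, EBF1 and PAX5. Granulocyte progenitors fill their first granules with serine proteases under PU.1 and C/EBP factors. The windows of 250 bases before the start are shown for 3 pre-B cell receptor genes that rose and 2 granule proteases that fell, as examples of both directions. They come from RefSeq on GRCm38.p6 and are written along the gene's strand, and the capitals mark CAGGTG, an E-box that E2A can bind, and GAGGAA, a PU-box, in either orientation.
Vpreb1: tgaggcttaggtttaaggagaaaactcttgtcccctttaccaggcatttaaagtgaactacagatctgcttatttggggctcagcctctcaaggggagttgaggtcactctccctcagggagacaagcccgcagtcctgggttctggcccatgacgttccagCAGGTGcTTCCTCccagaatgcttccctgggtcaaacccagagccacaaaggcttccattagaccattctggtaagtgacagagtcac
Vpreb2: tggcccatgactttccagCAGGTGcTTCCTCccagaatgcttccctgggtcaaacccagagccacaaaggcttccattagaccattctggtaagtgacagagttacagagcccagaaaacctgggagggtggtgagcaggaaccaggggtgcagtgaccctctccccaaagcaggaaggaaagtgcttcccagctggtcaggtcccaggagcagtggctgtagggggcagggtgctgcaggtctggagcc
Cd79a: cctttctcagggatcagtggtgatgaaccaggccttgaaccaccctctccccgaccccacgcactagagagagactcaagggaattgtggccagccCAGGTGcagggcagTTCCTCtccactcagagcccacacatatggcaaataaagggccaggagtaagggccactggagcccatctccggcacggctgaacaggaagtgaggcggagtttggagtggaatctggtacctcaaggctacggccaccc
Elane: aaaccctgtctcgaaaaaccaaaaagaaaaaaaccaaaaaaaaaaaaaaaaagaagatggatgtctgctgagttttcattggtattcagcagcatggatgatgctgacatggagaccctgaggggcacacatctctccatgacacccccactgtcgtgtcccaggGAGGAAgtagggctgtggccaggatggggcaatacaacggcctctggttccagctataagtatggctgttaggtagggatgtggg
Prtn3: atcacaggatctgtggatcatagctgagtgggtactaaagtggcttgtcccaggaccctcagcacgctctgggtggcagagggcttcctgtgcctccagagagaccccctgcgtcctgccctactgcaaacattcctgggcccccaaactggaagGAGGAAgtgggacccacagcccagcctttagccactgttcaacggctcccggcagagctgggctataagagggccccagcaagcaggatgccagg

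The windows lie at chr16:16869256-16869505 on the minus strand for Vpreb1, chr16:17980315-17980564 on the plus strand for Vpreb2, chr7:24897247-24897496 on the plus strand for Cd79a, chr10:79886062-79886311 on the plus strand for Elane and chr10:79879417-79879666 on the plus strand for Prtn3. The Vpreb2 window lies inside the span annotated for the gene. The last 106 bases of the Vpreb1 window and the first 106 bases of the Vpreb2 window were identical at 104 positions, and both hold an E-box next to a PU-box. Elane and Prtn3 are neighbours on chromosome 10. Of the 13 called higher B-lineage genes with a RefSeq window, 6 held CAGGTG on either strand (Vpreb1, Vpreb2, Cd79a, Blnk, Rag1 and Cr2), against 16.8% of all 13605 windows. CAGGTG also stood in 2 of 8 called lower primary granule genes (Ctsg and Gfi1). Vpreb1 and Vpreb2 count separately here and for GAGGAA, though both matches lie in their near-identical stretch. GAGGAA stood in 5 of the 13 and in 5 of 8 called lower primary granule genes (Elane, Prtn3, Ctsg, Csf3r and Igsf6), against 22.8% of all windows. The EBF motif, TCCC and GGGA 2 bases apart, present in 0.867% of all windows, was in none of the 13 or the 8. The C/EBP motif TTGCNNAA, present in 8.08%, was in none of the 13 and in 1 of the 8. The homeobox core TAATTA, present in 3.08%, was in none of the 13 and none of the 8. These are letters in a window, not binding sites.

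**Figure D2:**
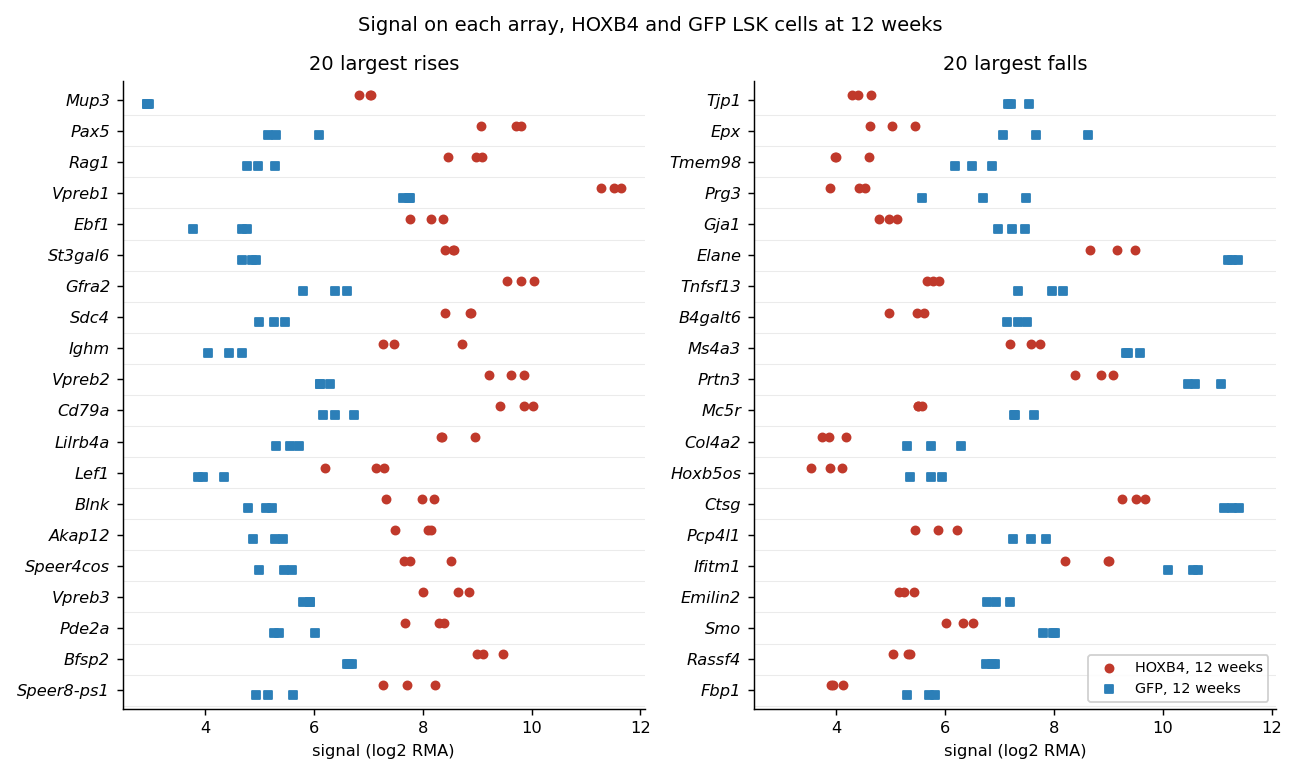
Signal on each array (log2 RMA, x axis) for the 20 largest named rises and the 20 largest named falls, with HOXB4 arrays as red circles and GFP arrays as blue squares. For each of the 40 genes the 3 HOXB4 arrays lie on 1 side of the 3 GFP arrays.

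B-lineage transcription factors rose and fell in different members. Of 20 measured, 4 were higher in HOXB4 cells, 2 lower and 14 not called, with a median of 0.48. Pax5, which commits cells to the B lineage, read 9.81, 9.07 and 9.71 in HOXB4 cells, against 5.16, 5.30 and 6.09 in GFP cells (4.01 ± 0.79, 16.1-fold; adjusted p = 0.012). Ebf1, which acts before Pax5, read 8.37, 7.77 and 8.15 in HOXB4 cells, against 3.77, 4.76 and 4.67 in GFP cells (3.70 ± 0.72; adjusted p = 0.0115). In GFP cells Ebf1 lay within the range of the non-specific controls on all 3 arrays, and its other probe sets gave 4.45 and 3.36. Lef1, a Wnt effector used by early B and T cells, rose by 2.82 ± 0.68 (adjusted p = 0.0321), and Id3, an inhibitor of E proteins, by 1.27 ± 0.32 (adjusted p = 0.0408). The GFP values of Lef1 lay within the range of the non-specific controls. On the other side Irf8 (-0.99 ± 0.25; adjusted p = 0.0417), which serves both B and myeloid cells, and the octamer factor Pou2f2 (-0.92 ± 0.24; adjusted p = 0.0462) were lower. Pou2af1, the partner of octamer factors, had a difference of 3.63 that did not pass (adjusted p = 0.068). Without GFP replicate 1 or HOXB4 replicate 1 the count of higher members was 0, and without each of the other 4 arrays it was 2.

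Of 17 measured members of the pre-B cell receptor and its signalling chains 7 were higher and none lower, and the median was 0.42. The surrogate light chain Vpreb1 read 11.64, 11.27 and 11.51 in HOXB4 cells, against 7.64, 7.77 and 7.75 in GFP cells (3.75 ± 0.79, 13.5-fold; adjusted p = 0.0183). Its relative Vpreb2 read 9.62, 9.22 and 9.85 in HOXB4 cells and 6.11, 6.30 and 6.10 in GFP cells (3.39 ± 0.64; adjusted p = 0.00983), on a probe set whose name marks possible cross-hybridisation between related transcripts. In both genes the lowest HOXB4 array lay more than 2 log2 units above the highest GFP array. Cd79a, the signalling chain of the receptor, read 10.02, 9.42 and 9.85 in HOXB4 cells, against 6.39, 6.16 and 6.74 in GFP cells (3.33 ± 0.68; adjusted p = 0.015). The partner chain Cd79b rose by 1.46 ± 0.38 (adjusted p = 0.0482), Vpreb3, a further surrogate chain gene, by 2.62 ± 0.52 (adjusted p = 0.0128) and the adaptor Blnk by 2.79 ± 0.72 (adjusted p = 0.0442). The heavy chain gene Ighm read 7.47, 7.27 and 8.71 in HOXB4 cells, against 4.05, 4.67 and 4.44 in GFP cells (3.42 ± 0.39; adjusted p = 0.000898). HOXB4 replicate 3 was the high one for Ighm, and all 3 GFP values lay within the range of the non-specific controls. The receptor kinases did not pass: Blk had 0.42 (adjusted p = 0.281) and Syk -0.29 (adjusted p = 0.42). The count of higher members was 2, 3 and 3 without GFP replicates 1, 2 and 3, and 2, 4 and 3 without HOXB4 replicates 1, 2 and 3.

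Of 14 genes of V(D)J recombination, which joins receptor gene segments, 1 was higher and none lower (median 0.23). Rag1, a subunit of the recombinase, read 9.08, 8.46 and 8.98 in HOXB4 cells, against 4.97, 5.29 and 4.77 in GFP cells (3.83 ± 0.72, 14.2-fold; adjusted p = 0.00983). The groups were separated for the other subunit Rag2 (1.77; adjusted p = 0.0605) and for Dntt, the enzyme that adds bases at the joins (1.45; adjusted p = 0.061), and neither passed. Of 20 genes in the list named for the B cell surface 4 were higher and none lower (median 0.23): Vpreb3, Cd72 (1.27 ± 0.21; adjusted p = 0.00579), Cplx2 (1.15 ± 0.27; adjusted p = 0.0312) and the complement receptor Cr2 (0.48 ± 0.12; adjusted p = 0.044). The list also holds genes that do not encode surface proteins, Vpreb3 and Cplx2 among them. Without 1 of the 6 arrays the count of this list was 1 or 2, at 1 without GFP replicates 1 and 3 or HOXB4 replicate 1, and Rag1 was called each time. The summed signal of its 20 genes ran from 4618 to 5492 in HOXB4 and from 4240 to 4829 in GFP arrays, with 7 members within the range of the non-specific controls. Cd74, the invariant chain of MHC class II, also stands in the list of dendritic cell and MHC class II genes, and had -1.42 (adjusted p = 0.12).

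Over the 4 B-lineage lists together, 70 genes were measured, of which 15 were higher, 2 lower and the rest not called, with a median of 0.30. HOXB4 replicate 2 was the lowest HOXB4 array for 13 of the 15, with a median difference of -0.54 from the mean of the other HOXB4 arrays, and still lay above all GFP arrays. The 4 called in every fit without 1 of the 6 arrays were Ighm, Vpreb2, Rag1 and Cd72. Lymphoid priming genes, which mark progenitors before B or T commitment, had 4 of 22 higher and none lower (median 0.46): Rag1, Ighm, Blnk and Ets1. Ets1, a transcription factor of lymphoid cells, read 8.52, 7.86 and 8.21 in HOXB4 cells, against 5.98, 6.03 and 6.36 in GFP cells (2.07 ± 0.32; adjusted p = 0.00407). Among 20 T-lineage genes the receptor segment Trbv13-2 (2.27 ± 0.35; adjusted p = 0.00418) and the adaptor Lat (1.15 ± 0.15; adjusted p = 0.00166) were higher and the co-receptor Cd27 was lower (-0.71 ± 0.14; adjusted p = 0.0121). The summed T-lineage signal was 2741 to 2801 on HOXB4 arrays, against 2302 to 2332 on GFP arrays. In all, 7 of its 20 members lay within the range of the non-specific controls, Cd3e among them, and the part of T cells in these results was not tested.

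Of 21 genes of primary granules and granulocyte-monocyte progenitors, 9 were lower in HOXB4 cells, none was higher and 12 were not called, with a median of -1.02. Elane, the neutrophil elastase, read 8.67, 9.15 and 9.49 in HOXB4 cells, against 11.20, 11.38 and 11.28 in GFP cells (-2.18 ± 0.45, 4.54-fold; adjusted p = 0.0164). Prtn3, proteinase 3, read 8.39, 8.87 and 9.09 in HOXB4 cells and 10.59, 10.46 and 11.07 in GFP cells (-1.92 ± 0.41; adjusted p = 0.0183). Both proteases were lowest on HOXB4 replicate 1, as were 7 of the 9 genes, and the groups did not overlap. Cathepsin G (Ctsg) read 9.25, 9.50 and 9.67 in HOXB4 cells, against 11.13, 11.27 and 11.40 in GFP cells (-1.79 ± 0.26; adjusted p = 0.00294). Ms4a3, a membrane protein of granulocyte-monocyte progenitors, read 7.20, 7.58 and 7.74 in HOXB4 cells, against 9.33, 9.37 and 9.59 in GFP cells (-1.92 ± 0.33; adjusted p = 0.00625). The other called members were Cebpa, Csf3r, Gfi1, Igsf6 and Trem3, between -1.20 and -1.53. The myeloperoxidase gene Mpo had -1.02 and did not pass (adjusted p = 0.0583). The summed signal of the list was 12685 to 14549 on HOXB4 arrays, against 25012 to 27142 on GFP arrays. The count of lower members was 4, 5 and 4 without GFP replicates 1, 2 and 3, and 4, 4 and 6 without HOXB4 replicates 1, 2 and 3, and Ctsg, Ms4a3, Cebpa and Csf3r were called each time.

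Regulators and receptors of the myeloid line were among these falls. Of 25 myeloid transcription factors 4 were lower and none higher (median -0.07). Cebpa, which drives granulocyte fate, read 7.44, 7.37 and 7.37 in HOXB4 cells, against 9.11, 8.66 and 9.01 in GFP cells (-1.53 ± 0.23, 2.89-fold; adjusted p = 0.00319). Its relative Cebpb (-0.75 ± 0.15; adjusted p = 0.012), the repressor Gfi1 (-1.20 ± 0.26; adjusted p = 0.0194) and Irf8 (-0.99 ± 0.25) were the other 3. Of 33 cytokine receptors 5 were lower and none higher (median -0.16). Csf3r, the receptor for granulocyte colony-stimulating factor, read 7.14, 7.17 and 7.16 in HOXB4 cells, against 8.80, 8.75 and 8.50 in GFP cells (-1.53 ± 0.25; adjusted p = 0.00579). The 3 HOXB4 values are nearly equal. Il6ra (-1.30 ± 0.20), Il1r1 (-0.92 ± 0.24), Il3ra (-0.83 ± 0.21) and Kit (-0.63 ± 0.13; adjusted p = 0.014) were also lower. Without 1 of the 6 arrays 1 or 2 factors and 2 or 3 receptors were called lower, with the fewest factors (1) without GFP replicates 1 and 3 and HOXB4 replicate 3, and the fewest receptors (2) without GFP replicates 1 and 2 and HOXB4 replicate 2.

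Later granulocyte genes had few calls. Of 21 secondary and late granule genes 1 was higher and 1 lower, with a median of 0.33. Camp, the precursor of the antimicrobial peptide cathelicidin, read 9.38, 10.18 and 10.25 in HOXB4 cells, against 8.03, 7.12 and 7.53 in GFP cells (2.37 ± 0.55, 5.18-fold; adjusted p = 0.0264). Pglyrp1, which binds bacterial cell walls, read 6.36, 7.40 and 7.32 in HOXB4 cells, against 8.21, 8.30 and 8.53 in GFP cells (-1.32 ± 0.29; adjusted p = 0.0211). The pair moved in opposite directions, and HOXB4 replicate 1 was the lowest HOXB4 array for both. Ngp, another secondary granule gene, had a difference of 2.51 that did not pass (adjusted p = 0.101). The call of Camp was lost when any 1 of the 6 arrays was left out, and that of Pglyrp1 without any GFP array or HOXB4 replicate 1. The summed signal of the list was 7099 to 10020 on HOXB4 arrays, against 3166 to 4594 on GFP arrays, with 3 of 21 members within the range of the non-specific controls, and the part of maturing neutrophils in these results was not tested.

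Eosinophil, mast cell and monocyte genes were mostly lower where they changed. The eosinophil peroxidase Epx read 5.03, 4.62 and 5.45 in HOXB4 cells, against 7.67, 7.07 and 8.62 in GFP cells (-2.75 ± 0.66, 6.73-fold; adjusted p = 0.0321). The eosinophil granule protein Prg3 read 3.88, 4.52 and 4.41 in HOXB4 cells, within the range of the non-specific controls, against 6.69, 5.57 and 7.48 in GFP cells (-2.31 ± 0.58; adjusted p = 0.0379). For both, GFP replicate 3 was high and GFP replicate 2 low. They were 2 of 9 measured eosinophil genes, whose summed signal was 535 to 571 on HOXB4 arrays, against 1209 to 2667 on GFP arrays, with 3 members within the control range; the part of eosinophil progenitors was not tested. Both calls were lost without each array other than GFP replicate 2. Of 15 mast cell and basophil genes 3 were lower, the histidine decarboxylase Hdc (-1.46 ± 0.21; adjusted p = 0.00294), the protease Mcpt8 (-1.58 ± 0.38; adjusted p = 0.0303) and Kit. The IgE receptor chain Ms4a2 was higher, with 9.40, 9.22 and 9.13 in HOXB4 cells, against 6.98, 7.39 and 7.27 in GFP cells (2.04 ± 0.41; adjusted p = 0.0133). The summed mast cell and basophil signal was 3085 to 3314 on HOXB4 arrays, against 2464 to 2695 on GFP arrays, and 1 or 2 members were called lower when 1 array was left out, with 1 without GFP replicates 1 and 2 or HOXB4 replicate 2. Of 27 monocyte and macrophage genes 5 were lower and none higher (median -0.37): Mpeg1 (-1.60), Ms4a6c (-1.46), the Fc receptor Fcgr3 (-1.33), the lectin Lgals3 (-1.05) and Irf8. Their number was 1, 1 and 2 without GFP replicates 1, 2 and 3, and 3, 0 and 1 without HOXB4 replicates 1, 2 and 3. The summed signal of the list was 2256 to 2691 on HOXB4 arrays, against 3659 to 4349 on GFP arrays, with 5 members within the control range, and the part of monocytes was not tested. A dimmer probe set of Ms4a6c gave 0.66 and was not called. Of 17 dendritic cell and MHC class II genes only H2-Ob was called (1.51 ± 0.31; adjusted p = 0.0158), and not without GFP replicate 3 or any HOXB4 array.

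Megakaryocyte and platelet genes rose in 4 of 23 measured members, with none lower and a median of 0.24. Pf4, the platelet factor stored in alpha granules, read 11.50, 11.30 and 11.38 in HOXB4 cells, against 9.57, 10.08 and 9.53 in GFP cells (1.67 ± 0.43, 3.18-fold; adjusted p = 0.0442). The thrombin receptor F2r read 9.33, 9.36 and 9.51 in HOXB4 cells, against 8.09, 7.93 and 7.84 in GFP cells (1.45 ± 0.33; adjusted p = 0.0245). Treml1, a receptor of platelet granules (1.44 ± 0.27; adjusted p = 0.00934), and Mmrn1, a carrier of coagulation factor V (1.38 ± 0.34; adjusted p = 0.0357), completed the 4. Each of the 4 was separated between the groups by at least 1.0 log2 unit. Vwf, the von Willebrand factor, had 0.72 (adjusted p = 0.311), and the integrin Itga2b 0.19 (adjusted p = 0.714). Without GFP replicate 3 none of the 4 was called, and without each other array of the comparison 1 was. Among 28 erythroid genes only Mfsd2b, a lipid transporter of red cells and platelets, was called (1.46 ± 0.33; adjusted p = 0.0243), a call lost with any 1 array left out, and Hemgn had 0.66 ± 0.22 (adjusted p = 0.108). Over all genes 4.02% were called.

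Of 29 genes of the LSK sort and of stem cells, 3 were lower, none was higher and 26 were not called, with a median of -0.09 and differences between -1.01 and 1.64. The arrays of the groups did not overlap for 18 of the 29, against 34.8% of all genes. Cd34, which marks short-term repopulating cells and progenitors within mouse LSK cells, read 9.12, 9.52 and 9.54 in HOXB4 cells, against 10.06, 10.14 and 10.24 in GFP cells (-0.75 ± 0.13, 1.69-fold; adjusted p = 0.00731). Kit and the homeobox gene Hoxb5 (-0.87 ± 0.17; adjusted p = 0.0115) were the others. Hoxb5 read 4.47, 4.66 and 4.53 in HOXB4 cells, within the range of the non-specific controls. Without 1 of the 6 arrays 1 to 3 genes of the list were called lower, with 1 left without GFP replicate 1. The surface marker Slamf1 read 7.55, 7.09 and 7.22 in HOXB4 cells, against 5.84, 5.47 and 5.62 in GFP cells, a difference of 1.64 that did not pass (adjusted p = 0.0829). Procr, the endothelial protein C receptor that marks stem cells, read 5.22, 5.68 and 5.48 in HOXB4 cells, against 6.65, 6.25 and 6.50 in GFP cells (-1.01; adjusted p = 0.0799). Neither pair of groups overlapped, and neither gene was called. Of 22 Hox genes and cofactors 2 were lower and none higher (median -0.13), Hoxb5 and Hoxb2, both in the HoxB cluster that also holds Hoxb4. Hoxb2 read 3.70, 4.02 and 4.03 in HOXB4 cells, against 4.77, 4.57 and 4.61 in GFP cells, all within the range of the non-specific controls (-0.73 ± 0.14; adjusted p = 0.0118). Hoxb5os, named as the opposite strand of Hoxb5, read 3.53, 4.11 and 3.88 in HOXB4 cells, within the range of the non-specific controls, against 5.94, 5.74 and 5.36 in GFP cells (-1.84 ± 0.42; adjusted p = 0.0262). Whether the labelling kept the strand is not stated in the files or labels. Neither Hoxb2 nor Hoxb5 was called without GFP replicate 1 or HOXB4 replicate 1.

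Immediate-early genes, which respond within minutes to growth factors and other stimuli, rose in 7 of 31 members with none lower and a median of 0.30. Fos read 6.40, 7.48 and 7.62 in HOXB4 cells, against 4.79, 4.68 and 4.74 in GFP cells (2.43 ± 0.58; adjusted p = 0.0299). Its partner Jun read 10.14, 10.19 and 10.44 in HOXB4 cells, against 7.97, 7.45 and 8.05 in GFP cells (2.43 ± 0.49; adjusted p = 0.0145). The Fos values of GFP cells lay within the range of the non-specific controls, and HOXB4 replicate 1 was the lowest of its group. Jund (1.36 ± 0.28; adjusted p = 0.0156), the phosphatases Dusp1 (1.75 ± 0.46; adjusted p = 0.0491) and Dusp2 (0.84 ± 0.17; adjusted p = 0.0151), Btg2 (1.44 ± 0.35; adjusted p = 0.0333) and Ier5 (0.80 ± 0.16; adjusted p = 0.0142) rose too. A dimmer probe set of Jund gave -0.24 and was not called. The GFP values of Ier5 lay within the range of the non-specific controls. The related factors Fosb (1.43; adjusted p = 0.142), Egr1 (1.34; adjusted p = 0.394) and Junb (0.12; adjusted p = 0.742) did not pass. The count was 1, 3 and 1 without GFP replicates 1, 2 and 3, and 2, 1 and 2 without HOXB4 replicates 1, 2 and 3. Of the 7 promoter windows none held the AP-1 motif TGANTCA, present in 5.67% of all windows. The NF-kB inhibitor Tnfaip3 was the 1 called gene of 24 in its list (1.07 ± 0.16; adjusted p = 0.00304), against 4.02% of all genes called. Btg2 and Trp53inp1 (1.34 ± 0.31; adjusted p = 0.0254) were the 2 called of 20 p53 targets, neither of them called with any 1 array left out.

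Signalling genes of the TGF-beta and BMP pathways rose in 3 of 30 members, Smad1 (1.29 ± 0.20; adjusted p = 0.00461), Id3 and the inhibitor Smad7 (0.51 ± 0.13; adjusted p = 0.0408). Smad1, which carries BMP signals to the nucleus, read 10.33, 10.48 and 10.46 in HOXB4 cells, against 9.28, 8.92 and 9.21 in GFP cells, and it alone of the 3 was called in every fit without 1 array. Lef1 was the 1 called of 25 Wnt pathway genes, and Ifit3 the 1 called of 29 interferon response genes (0.57 ± 0.14; adjusted p = 0.0324). Among 15 Bcl2 family genes only the death agonist Bid was called, lower by -0.83 ± 0.21 (adjusted p = 0.0414). Among 23 chromatin regulators only Hmga2 was (-0.80 ± 0.21; adjusted p = 0.0424). The cyclin Ccnd1 was the 1 called of 21 cyclins and CDK inhibitors (-0.77 ± 0.19; adjusted p = 0.0414). Lef1, Ifit3, Bid, Hmga2 and Ccnd1 each lost the call when any 1 of the 6 arrays was left out. These single calls stand against 4.02% of all genes called in either direction.

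Of 30 genes of the endoplasmic reticulum and the unfolded protein response 5 were lower and none higher (median -0.28). Hyou1, a chaperone of that compartment, read 9.44, 9.57 and 9.45 in HOXB4 cells, against 10.37, 10.44 and 10.12 in GFP cells (-0.82 ± 0.12, 1.77-fold; adjusted p = 0.00294). Sdf2l1 (-0.88 ± 0.15), Pdia4 (-0.85 ± 0.17), Creld2 (-0.75 ± 0.14) and Edem1 (-0.45 ± 0.11) were the others, and 3 or 4 were called when 1 array was left out, with 3 without GFP replicate 1 or HOXB4 replicate 1. A dimmer probe set of Edem1 gave -0.01. Of 29 glycolysis and hypoxia genes 6 were lower and 1 higher (median -0.29). The oxygen sensor Egln3 read 5.84, 6.50 and 6.40 in HOXB4 cells, against 7.70, 7.52 and 7.62 in GFP cells (-1.36 ± 0.25; adjusted p = 0.00919). The glycolytic enzymes Pfkp (-0.66), Hk2 (-0.65), Aldoa (-0.60), Tpi1 (-0.55) and Gapdh (-0.46) were lower, and Ddit4, an inhibitor of mTOR signalling, was higher (1.31 ± 0.23; adjusted p = 0.00734). The count of lower members was 3 without each GFP array and 1, 5 and 4 without HOXB4 replicates 1, 2 and 3. Further falls were those of Acly, Fasn and Nsdhl among 22 genes of cholesterol and fatty acid synthesis, Ndufv1, Uqcrc1 and Ndufs1 among 28 of oxidative phosphorylation, and Idh3a and Idh2 among 17 of the tricarboxylic acid cycle. They lay between -0.48 and -0.89. With any 1 of the 6 arrays left out, at most 1 member of each of these 3 lists was called. The heat shock genes Cryab (-0.80) and Hsph1 (-0.78) were lower of 14, with at most 1 of them called when 1 array was left out. Further probe sets of Cryab gave -0.23 and 0.12. Differences in the heat shock list reached 2.5 in a member that was not called, and without the 6-week group 1 member was called higher. Of 27 ribosome biogenesis genes Wdr12 (-0.77) and Heatr1 (-0.57) were lower, with a median of -0.31, against 2.2% of all genes called lower. The arrays of the groups did not overlap for 20 of the 27, against 34.8% of all genes, and 0 of the 27 differences lay above 0. Without the 6-week group 6 of the 27 were called lower. In the tricarboxylic acid cycle list 0 of 17 differences lay above 0, and the arrays did not overlap for 13 genes. Among 30 antioxidant genes Gsta4 (-1.16) and Gclm (-0.58) were lower, with at most 1 lower call when 1 array was left out, and Mgst2 was higher (1.85 ± 0.23; adjusted p = 0.00141).

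Of 26 junction and basement membrane genes 1 was higher, 3 were lower and 22 were not called (median 0.04). Tjp1, the tight junction scaffold ZO-1, read 4.39, 4.64 and 4.28 in HOXB4 cells, within the range of the non-specific controls, against 7.21, 7.15 and 7.55 in GFP cells (-2.87 ± 0.32; adjusted p = 0.000898). The gap junction protein Gja1 (a connexin) read 5.12, 4.96 and 4.79 in HOXB4 cells, against 7.46, 6.97 and 7.23 in GFP cells (-2.26 ± 0.34; adjusted p = 0.00319), and its 4 other probe sets gave -0.79 to -2.84. Col4a2, a basement membrane collagen gene within the range of the non-specific controls in HOXB4 cells, was also lower (-1.85 ± 0.31; adjusted p = 0.00579). These were the 3 lower genes, all 3 called in every fit without 1 array, with 5 called lower without GFP replicate 2. The heparan sulphate proteoglycan Sdc4 read 8.89, 8.41 and 8.87 in HOXB4 cells, against 5.46, 5.26 and 4.99 in GFP cells (3.49 ± 0.60, 11.2-fold; adjusted p = 0.00641). Among 23 sialyl- and galactosyltransferases 2 were higher and 3 lower, and all 5 were called in every fit without 1 array. St3gal6, which caps glycans with sialic acid and helps make selectin ligands, read 8.58, 8.55 and 8.40 in HOXB4 cells, against 4.85, 4.68 and 4.93 in GFP cells (3.69 ± 0.52, 12.9-fold; adjusted p = 0.00256). Its other probe sets gave 1.05, 1.96, 0.84 and 0.08. St6gal1 was higher (2.27 ± 0.41; adjusted p = 0.00767), and B4galt6 (-1.97 ± 0.27), B4galt4 (-0.90 ± 0.17) and St6galnac4 (-0.82 ± 0.14) were lower. Of 23 integrin and homing genes St3gal6 was higher and Robo4 lower (-0.87 ± 0.21; adjusted p = 0.0318), with the HOXB4 values of Robo4 within the range of the non-specific controls.

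**Figure D3:**
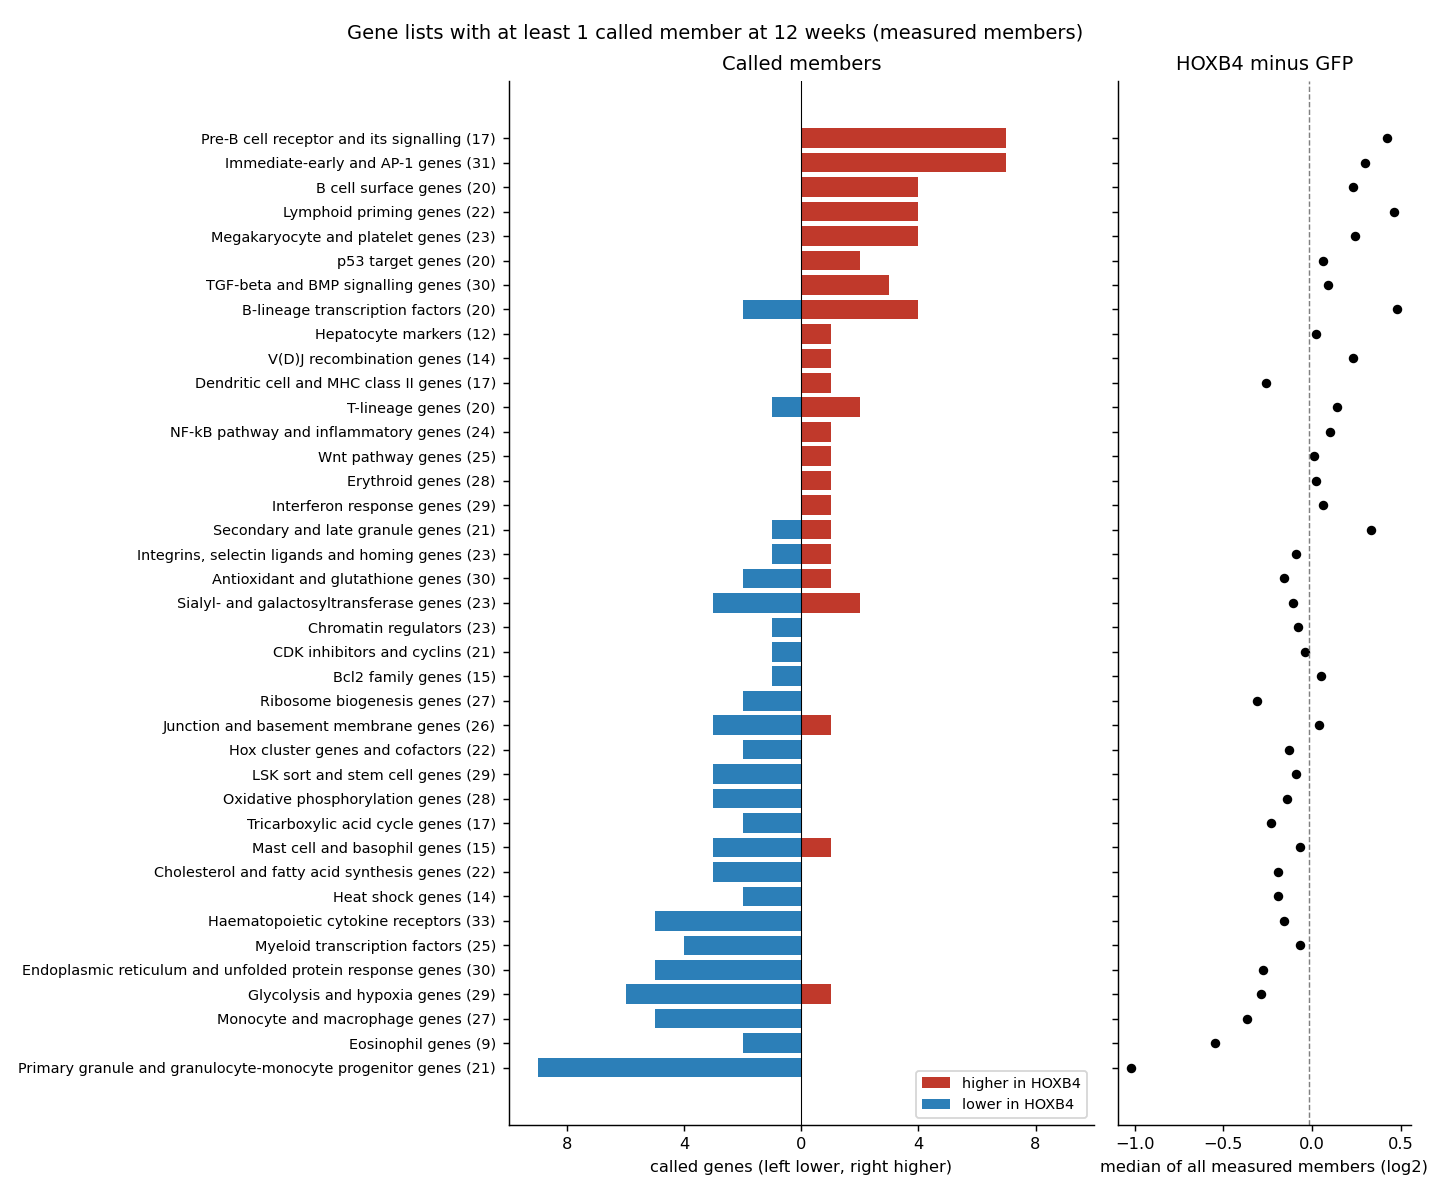
Called members of the 39 gene lists with at least 1 call at 12 weeks (left panel, number of genes higher in HOXB4 to the right and lower to the left, measured members in brackets) and the median difference of all measured members (right panel, log2, dashed line at the median of all genes). The pre-B cell receptor and immediate-early lists hold 7 rises each, and the primary granule list 9 falls.

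Several of the largest changes were those of genes outside the lists above. Mup3, a major urinary protein made mainly by liver, read 7.05, 6.83 and 7.02 in HOXB4 cells, against 2.92, 2.93 and 2.96 in GFP cells, within the range of the non-specific controls (4.03 ± 0.40; adjusted p = 0.000484). The groups are far apart and each is tight. Its probe set carries a suffix that marks probes shared with related transcripts, and the urinary protein genes are near-identical copies, so which copy was read is uncertain. It was the 1 called of 12 hepatocyte markers. Albumin (Alb) had 0.19 (adjusted p = 0.3), and the summed signal of the list was 649 to 678 on HOXB4 arrays, against 549 to 581 on GFP arrays, with 3 of 12 members within the control range. The part of liver RNA in the Mup3 signal was not tested. The neurotrophic factor receptor Gfra2 (3.54 ± 0.62; adjusted p = 0.00693), the inhibitory receptor Lilrb4a (3.02 ± 0.41; adjusted p = 0.00228), the scaffold Akap12 (2.72 ± 0.40; adjusted p = 0.00297), the phosphodiesterase Pde2a (2.57 ± 0.42; adjusted p = 0.0056) and the lens filament gene Bfsp2 (2.54 ± 0.48; adjusted p = 0.0097) rose. So did Speer4cos (2.63 ± 0.43; adjusted p = 0.00579) and Speer8-ps1 (2.51 ± 0.45; adjusted p = 0.00734), members of a family of near-identical copies. The probe set of Lilrb4a carries the same suffix as that of Mup3, so a related transcript may have been read. Tmem98 (-2.33 ± 0.41), the cytokine Tnfsf13 (-2.04 ± 0.38), the melanocortin receptor Mc5r (-1.87 ± 0.26), Pcp4l1 (-1.72 ± 0.36), Ifitm1 (-1.70 ± 0.39), Emilin2 (-1.69 ± 0.30), the hedgehog transducer Smo (-1.65 ± 0.42), the gluconeogenic enzyme Fbp1 (-1.61 ± 0.34) and Rassf4 (-1.61 ± 0.31) fell. Their adjusted p lay between 0.00242 and 0.0428. The HOXB4 values of Tmem98 and Fbp1 lay within the range of the non-specific controls.

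The smallest p-values included changes of moderate size with little spread. Rian, a non-coding RNA expressed from the maternal chromosome, read 5.75, 5.69 and 5.78 in HOXB4 cells, against 4.53, 4.64 and 4.23 in GFP cells (1.27 ± 0.13; adjusted p = 0.000484), and its 3 dimmer probe sets gave 0.14, 0.35 and -0.04. Clec2i, a C-type lectin, read 8.18, 8.21 and 8.06 in HOXB4 cells, against 6.68, 6.38 and 6.69 in GFP cells (1.57 ± 0.16; adjusted p = 0.000484). The actin-severing protein Gsn read 8.98, 9.50 and 9.28 in HOXB4 cells, against 6.85, 7.27 and 6.38 in GFP cells (2.42 ± 0.29; adjusted p = 0.00132). Each of the 3 was called in every fit without 1 array. Of the 4 other probe sets of Gsn, 2 gave 2.46 and 2.40 and the dimmer ones 0.92 and 0.00. The ceramide synthase Cers6 read 5.94, 5.86 and 5.88 in HOXB4 cells, against 7.38, 7.34 and 7.23 in GFP cells (-1.42 ± 0.16; adjusted p = 0.000898). Sestd1 (-1.41 ± 0.19) and the small GTPase Rab32 (-1.11 ± 0.14) also fell, and Adam4 (1.38 ± 0.17), Xlr4b (1.35 ± 0.18), Rtp3 (1.34 ± 0.18) and the retinal reductase Dhrs3 (1.27 ± 0.16) rose, with adjusted p between 0.00132 and 0.00228. The HOXB4 values of Sestd1 and the GFP values of Rian lay within the range of the non-specific controls.

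The same vectors were compared at 20 weeks on other arrays, where 645 genes were higher (3.77%) and 885 lower (5.18%) in HOXB4 cells. Of the 312 genes higher at 12 weeks 101 were higher at 20 weeks as well, and of the 376 lower genes 194 were lower as well. For 5 genes the calls were opposite, and 388 were not called at 20 weeks. The 9 called primary granule genes were all called lower again, with Elane at -3.77, Prtn3 at -3.81 and Ctsg at -2.97. The 4 megakaryocyte genes were all called higher again, with Pf4 at 3.56 and F2r at 2.30. Of the 15 higher B-lineage genes 6 were called higher again and 14 had a difference above 0. Pax5 had 2.54 at 20 weeks (adjusted p = 0.059) and Vpreb1 2.38 (adjusted p = 0.0805). Pax5 averaged 8.12 ± 2.11 at 6 weeks, 9.53 ± 0.40 at 12 weeks and 9.99 ± 0.56 at 20 weeks in HOXB4 cells, against 5.52 ± 0.50 at 12 weeks and 7.45 ± 1.21 at 20 weeks in GFP cells (SD, n = 3 each). The spread of Pax5 was thus wider in the other groups, which enter the shared error of the model.

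**Figure D4:**
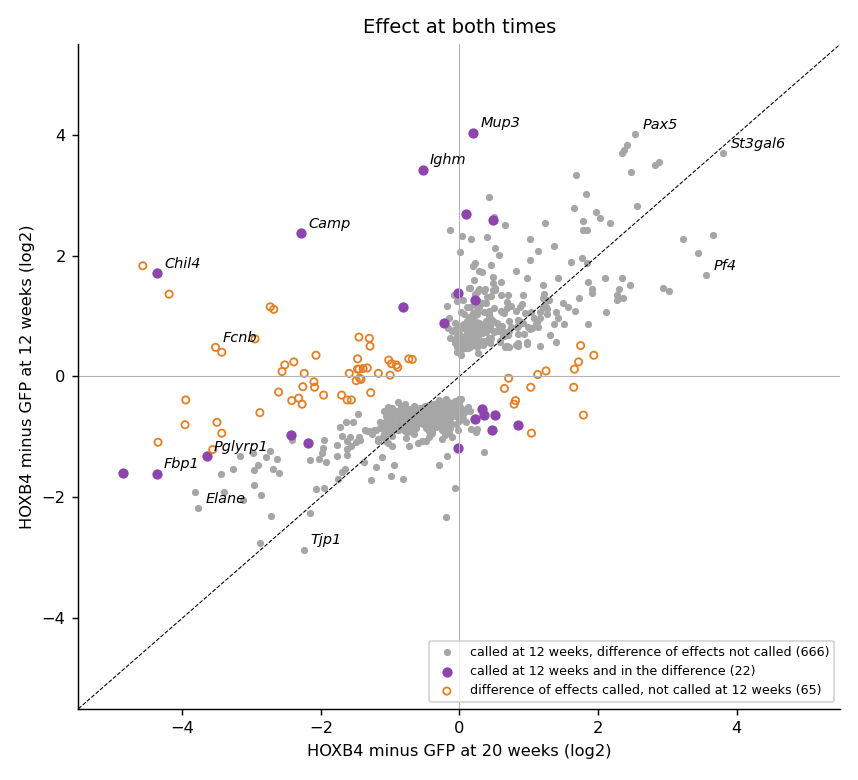
Difference between HOXB4 and GFP cells at 12 weeks (log2, y axis) against the difference at 20 weeks (log2, x axis) for genes called at 12 weeks or in the difference of the effects. The 22 genes called at 12 weeks and in the difference are purple, the 666 others called at 12 weeks are grey, and open circles are genes called in the difference alone, with equal effects on the dashed line.

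A test of the difference itself, the effect at 12 minus the effect at 20 weeks, called 87 genes (0.509%), 66 above 0 (0.386%) and 21 below 0 (0.123%). Of them 22 were also called at 12 weeks. The 87 held 9 of the 21 secondary and late granule genes, all 9 above 0. At 12 weeks Camp averaged 9.94 ± 0.48 in HOXB4 cells and 7.56 ± 0.46 in GFP cells (SD, n = 3). At 20 weeks HOXB4 cells had 8.22 ± 0.86 and GFP cells 10.51 ± 0.03, so that its effect was 2.37 at 12 and -2.29 at 20 weeks (difference 4.66; adjusted p = 0.0122). Ighm had 3.42 at 12 and -0.53 at 20 weeks (difference 3.96; adjusted p = 0.00255), and at 20 weeks HOXB4 cells had 8.09 ± 0.37 and GFP cells 8.62 ± 0.83. The B-lineage genes Pax5, Vpreb1 and Cd79a were not called in this test, with differences of 1.47, 1.37 and 1.65. At 20 weeks Mup3 averaged 2.81 ± 0.17 in HOXB4 cells, against 2.61 ± 0.18 in GFP cells, an effect of 0.20 (difference 3.83; adjusted p = 0.00439). At 6 weeks Mup3 stood at 5.76 ± 1.26 in HOXB4 cells.

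**Figure D5:**
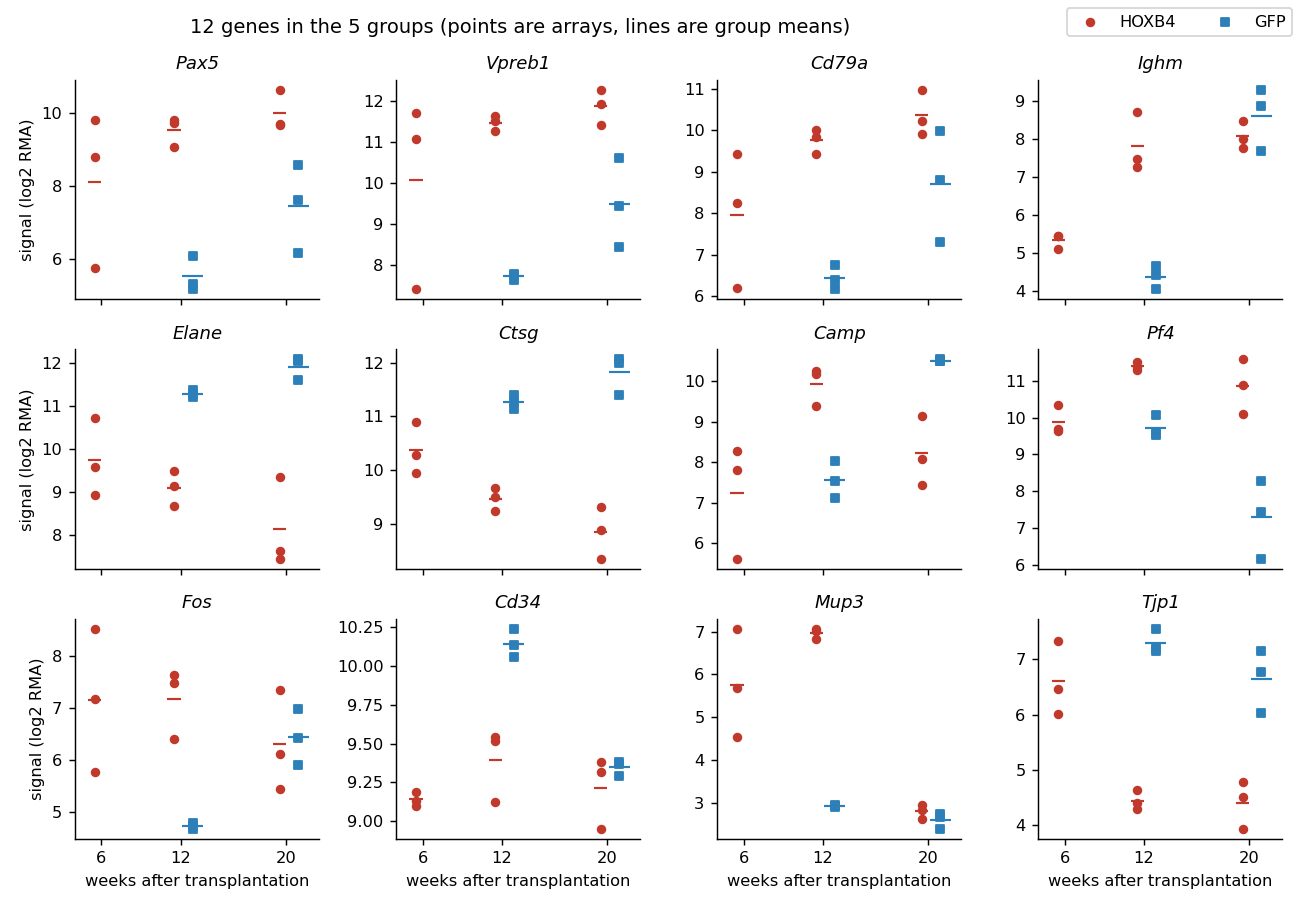
Signal of 12 genes (log2 RMA, y axis, scaled to each gene) at 6, 12 and 20 weeks (x axis), with red circles for HOXB4 arrays, blue squares for GFP arrays and lines for group means. Pax5, Vpreb1 and Cd79a are high in HOXB4 and low in GFP cells at 12 weeks, Camp changes its order between 12 and 20 weeks, and Mup3 is high in HOXB4 cells at 6 and 12 weeks only.

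Of 48 gene lists examined, 9 had no called member at 12 weeks, with medians between -0.22 and 0.24 over 189 measured genes. They were those of DNA replication (29 genes, median -0.22), G2 and mitosis (28 genes, median 0.07), cytosolic ribosomal proteins (22 genes, median 0.00), the Myc network, Notch, autophagy, FOXO targets, NK and innate lymphoid cells, and endothelial and stromal markers. In the DNA replication list the arrays of the groups did not overlap for 16 of 29 genes, against 34.8% of all genes. Of its 29 differences 3 lay above 0, against 8071 of 17097 over all genes. Without the 6-week group 4 genes of the DNA replication list and 2 of the Myc network were called lower. The proliferation gene Mki67 had 0.30 (adjusted p = 0.17) and Myc -0.49 (adjusted p = 0.0962). The endothelial and stromal markers had a summed signal of 1151 to 1202 on HOXB4 arrays, against 1000 to 1128 on GFP arrays, with 8 of 19 members within the range of the non-specific controls.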

How the data were processed

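The series holds 15 arrays of LSK cells in 5 groups of 3, of which the 12-week groups are compared here. The log2 values are the authors' deposited table of 45141 probe sets, which the submitters' processing notes say came from RMA with Partek 6.5. Filters and further scaling are not given in the sources used here. Of the probe sets, 28898 had 1 symbol in the platform annotation, updated by gene ID against GRCm38.p6, 551 had several and 15692 were not listed. For each of 17097 genes the brightest probe set was tested.

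One linear model with group means was fitted to all 15 arrays (limma 3.58.1, R 4.3.3, lmFit and eBayes, 10 residual and 4.55 prior degrees of freedom). Contrasts were HOXB4 minus GFP at 12 and 20 weeks and the difference of both effects, two-sided. On simulated data for the 12-week comparison over 17097 genes, 83 of 100 genes changed by 1 log2 unit and 97 of 100 changed by 2 were called. Of 16897 unchanged genes 12 were called. The simulated noise was normal, independent and, for each gene, equally wide in every group. These rates need not hold for genes whose spread differs between groups, such as Pax5. The depth of an array is limited by their number, and no detection calls were used.

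The genes named are the 20 largest rises, the 20 largest falls and the next 12 by p among called genes, without predicted genes, olfactory and vomeronasal receptors and small RNAs, called list members, up to 6 uncalled members by p, and members whose role is given. Of these 52 genes 12 had a further probe set, and no named or list gene had one called the opposite way. Some genes, such as Jund and Ms4a6c, had an uncalled further probe set of the opposite sign. Members and lists were chosen with earlier results of these data known. Alternatives were other normalisations, filters, probe set choices, variance models, groups in the fit, array weights, the replicate number as a block and leaving out each array, and, chosen after seeing the data, leaving out the 6-week group or its replicate 1. Summed signals add the linear values of a list's members. Motifs were searched on both strands of RefSeq windows with Python 3.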

Additional observations from a re-analysis of the deposited data

Results flagged for a closer look

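The effect of HOXB4 over GFP differed between 12 and 20 weeks, by the test of the difference of both effects, for the genes below; each value is the effect at 12 minus the effect at 20 weeks on the log2 scale. Genes of maturing neutrophils and monocytes above 0 were the chitinase-like pair Chil3 (6.4) and Chil4 (6.07), which are close copies, the ficolin Fcnb (4.0), Camp (4.66), Pglyrp1 (2.33), the lysozyme Lyz2 (2.42), Lrg1 (2.64), Wfdc21 (2.71), Ifitm6 (3.83), Ms4a4c (2.35) and Cd200r4 (1.95). Chil4 had the smallest adjusted p of limma's test (1.25e-05), and averaged 6.47 in HOXB4 cells against 4.76 in GFP cells at 12 weeks, and 4.78 in HOXB4 cells against 9.14 in GFP cells at 20 weeks. The other genes above 0 were Ighm (3.96), Mup3 (3.83), Fbp1 (2.76), Adam4 (1.39), Slco4c1 (1.19), Rab32 (1.07) and Rian (1.05). On all 6 arrays at 12 weeks Ifitm6, Cd200r4 and Slco4c1 lay within the range of the non-specific controls. Below 0 lay Stxbp4 (-2.43), the protease Tmprss3 (-1.98), Hmga2 (-1.64), the stress-induced Ndrg1 (-1.48), Soga1 (-1.22), the threonine aldolase Tha1 (-1.20), Plekha5 (-1.09), Synpo2 (-0.93), the scaffold Iqgap2 (-0.87) and the transcription factor Foxo3 (-0.85). Their adjusted p ran up to 0.0272.

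Outside the named genes, 546 of 16139 probe sets without a single gene symbol, control probe sets left out, were called between HOXB4 and GFP cells at 12 weeks, 421 higher and 125 lower. Their p-values were adjusted over all 45141 probe sets. Of the 17097 genes, adjusted among themselves, 4.02% were called. Groups of 3 arrays are too small for a test of single outlying arrays.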

How the results depend on the processing

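The number of called genes depended on which arrays set the error. It was 688 as reported, 863 (353 higher and 510 lower) without HOXB4 replicate 1 at 6 weeks, 1138 without the 6-week group, 2593 with the groups compared alone, 2791 with array weights and 308 without moderated variances. Called higher were 995 with the groups alone, 1159 with array weights, 142 without moderation and 187 with the dimmest genes dropped. Called lower were 670 without the 6-week group, 1598 with the groups alone, 1632 with array weights, 166 without moderation and 227 after quantile normalisation. The difference of effects called 183 genes without the 6-week group and with the 4 groups alone, 563 with array weights and 22 without moderation. Leaving out 1 array gave 214 to 362 called genes, 115 to 193 higher and 93 to 169 lower, and 38 to 222 for the difference of effects, with 222 without GFP replicate 3 at 20 weeks and 38 without HOXB4 replicate 2 at 12 weeks. Of the 135 called genes reported by name, 0 changed sign under any alternative run, 52 were called without each of the 6 arrays in turn and 50 under every alternative. Calls lost numbered 66 without moderation, 19 after quantile normalisation and 2 after median centring. With the replicate number as a block 586 genes were called (260 higher and 326 lower), 76 in the difference of effects, and 15 of the 135 lost the call. Deviations of same-numbered arrays correlated at 0.042, 0.06 and 0.054, and replicates 1 and 2 correlated best with their own number and HOXB4 replicate 3 with GFP replicate 1. As no correlation passed 0.1, the numbers were not taken to pair the arrays. Signals under the highest non-specific control limit the dim genes, and the arrays' number limits the precision.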
